A study of Mus musculus with 6 samples.

Results

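Genes of mitosis, 50 in number, were followed in the hearts of mouse embryos that lack Arid3b. They comprise the kinases and cyclins that start cell division, the kinetochore and the spindle checkpoint, the motors of the spindle, and the proteins that condense chromosomes and split the cell. The genes were taken from a fixed list of 50 symbols, and all 50 had a probe on the array. A gene counted as measured when 3 or more of the 6 arrays showed a probe of it well above background, and its brightest such probe stood for it. This held for 49 of the 50, and these 49 were well above background on all 6 arrays. Over the whole array 21800 genes were tested. The exception was Aurkb, the kinase of the chromosomal passenger complex, whose only probe was well above background on 0 of the 6 arrays and which therefore has no value here.

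The samples were hearts dissected at embryonic day 9.5, and the tissue took in the tube itself and, under it, mesoderm and endoderm of the pharynx. There were 3 wild-type pools and 3 Arid3b-null pools, with 4 embryos in each pool. Arid3b encodes a protein that binds AT-rich DNA through its ARID domain. The labels give no strain, no sex and no cell type in which the gene was removed, so the null pools are described only as null for Arid3b. RNA of each pool was labelled with 1 dye and hybridised to 1 array.

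Cell division is driven by cyclin-dependent kinases, and entry into mitosis follows when Cdk1, bound to cyclin A or B, is activated by Cdc25 phosphatases. Chromosomes then condense, and each attaches to spindle microtubules through its kinetochore, a protein assembly built on centromeric chromatin. The spindle checkpoint holds the anaphase-promoting complex inactive until the attachments are made. Most of these genes are transcribed late in the cell cycle under the control of Foxm1, Mybl2 and the MuvB complex, so their transcripts are widely read as a mark of dividing tissue. The embryonic heart at this stage grows by division of cardiomyocytes and by addition of progenitors from the pharyngeal mesoderm.

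Levels are given as the log2 signal of a probe minus the 75th percentile of log2 signal on the same array, so that 0 is the level of a fairly bright probe. A change is the mean of the null pools minus the mean of the wild-type pools on that scale. Between 27136 and 31039 of 43020 non-control spots per array were well above background, with the lowest count in null pool 3 and the highest in wild-type pool 3, and saturation was not met on any spot. This percentile was 9.5, 9.57 and 10.16 in wild-type pools 1, 2 and 3 and 9.47, 9.29 and 9.02 in null pools 1, 2 and 3. Wild-type and null pools of equal number shared a slide, 3 slides in all, and always in the same places, so place on the slide and genotype cannot be told apart. Arid3b itself stood at 2.91, 3.4 and 3.69 in the wild-type pools and at 1.07, 0.52 and 0.45 in the null pools, a fall of 2.65 on the log2 scale (SE 0.26, limma adjusted p = 0.00192). Defining markers of heart muscle were present, since all 9 cardiomyocyte genes examined were measured. Among these 9, only Nppa was called different between the groups (higher in the null pools, 11.1%, beside 6.6% of all genes). With 3 arrays per group the precision of every value below is limited by their number, and since the labels do not say whether pools came from separate litters, p-values measure only the spread between these pools.

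The mitosis genes as a group lay slightly lower in the null hearts, and the differences were small. The median change over the 49 genes was -0.26 on the log2 scale, against 0.03 over all genes tested, and the middle of the distribution ran from -0.43 to -0.09. The change was negative for 41 genes (83.7%, beside 47.6% of all genes) and positive for 8. That share of all genes is also the background for the negative counts by role below. Single genes ranged from 56.7% of the wild-type level (Nuf2) to 128% (Cdc25b). Only Nuf2 passed the test at a limma adjusted p under 0.05, which makes 1 of 49 (2.04%) lower, beside 3.83% of all genes tested. None of the 49 was called higher, beside 6.6% of all genes. At an unadjusted limma p under 0.05 the counts were 10 lower (20.4%, beside 11.9% of all genes) and 0 higher (beside 15.1% of all genes). After adjustment the share of mitosis genes called was no larger than the background.

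The same shift was seen in the ordering of the pools. In 18 of the 49 genes (36.7%) all 3 null pools lay below all 3 wild-type pools, beside 15% of all genes tested. In 0 of the 49 did all null pools lie above, beside 18% of all genes. The counts below and above were 27 and 0 with median scaling (beside 22.1% and 12.6% of all genes). With quantile normalization they were 16 and 2 (beside 16.7% and 16.4%), and with normexp background correction 19 and 1 (beside 11.5% and 24.8%). In the authors' deposited table they were 11 and 1 of the 23 genes held (beside 17.3% and 17%). Compared within slides, the null pool was below its wild-type neighbour on all 3 slides for 21 genes (42.9%, beside 17.9% of all genes) and above it on all 3 for 1 gene, Ncapd2 (2.04%, beside 21.7%). The median difference over the 49 genes was -0.24 on slide 1, -0.25 on slide 2 and -0.21 on slide 3, while that over all genes was -0.11, 0.09 and 0.13. When slides were fitted as blocks, 0 of the 49 passed the limma test. In RNA from whole tissue, fewer dividing cells and less RNA per dividing cell cannot be told apart. Every null array also had a lower 75th percentile than every wild-type array (9.02 to 9.47 against 9.5 to 10.16). The part of array brightness in the shift between genotypes was not tested.

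**Figure D1:**
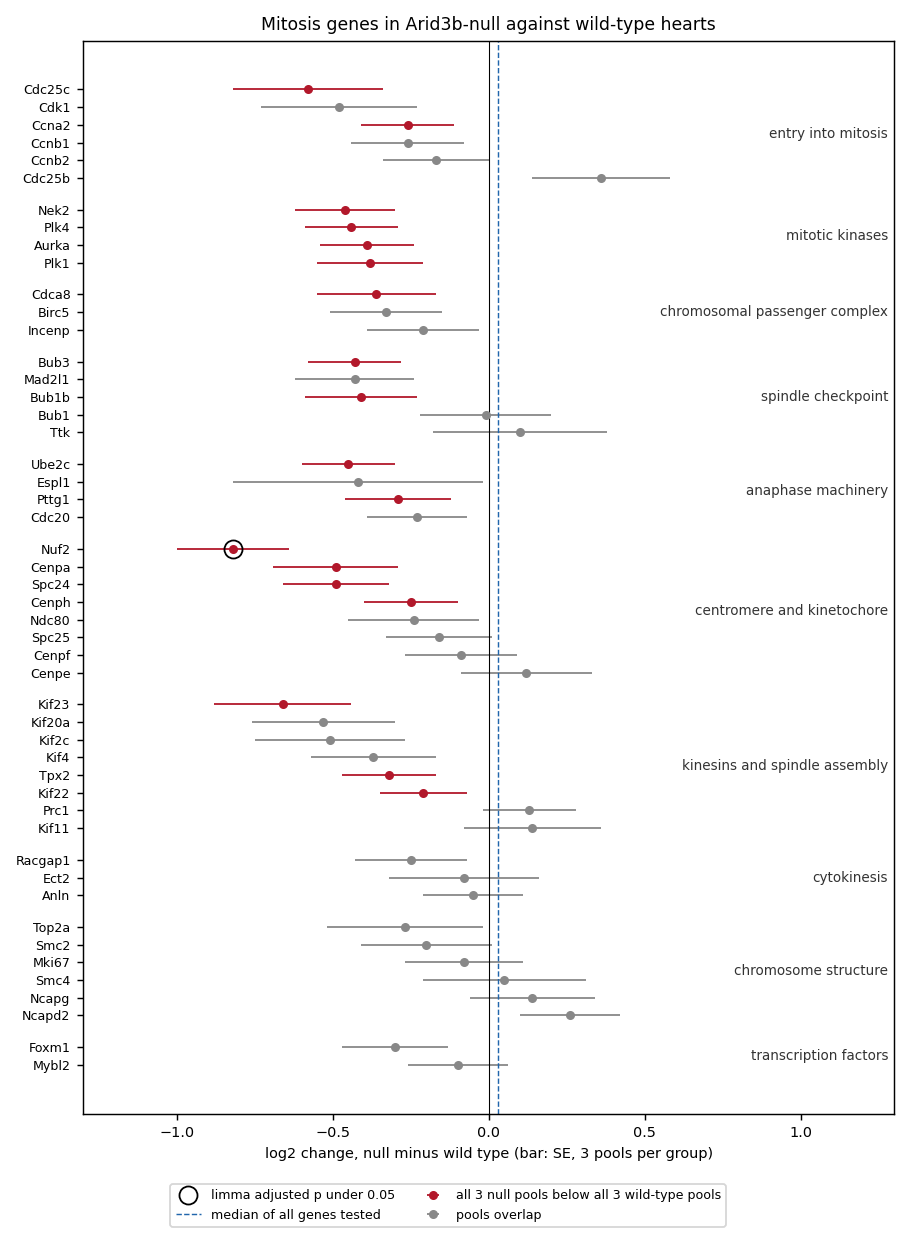
Log2 change of 49 mitosis genes, null minus wild type, grouped by role, with the moderated standard error as bars and 3 pools per group. Most points lie to the left of the dashed line, which marks the median of all genes tested (0.03). The ringed point is Nuf2 (-0.82), the only gene past the limma adjusted p of 0.05, and the 18 coloured points are genes whose null pools all lay below the wild-type pools.

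The size of what could have been missed is bounded by the intervals. The standard error ran from 0.14 to 0.4 with a median of 0.18. The 95% interval of the change lay wholly below 0 for 10 genes and wholly above 0 for 0 genes. It reached below -1, a halving, for 7 genes and above 1 for 0 genes, and the outermost ends were -1.36 (Espl1) and 0.87 (Cdc25b). When the arrays were scaled to their median instead of the 75th percentile, the median of all genes moved to -0.11 and that of the mitosis genes to -0.40. The distance between them stayed at -0.29. Both scalings subtract the same number from every probe of an array, so this distance was fixed in advance and tests nothing. With quantile normalization that distance was -0.2, and with another background correction, normexp, -0.47. The sign of the change held in every alternative setting that measured the gene for 38 of the 49 genes. It turned in at least 1 for the other 11, all with a change between -0.09 and 0.14, namely Anln, Bub1, Cenpe, Cenpf, Ect2, Kif11, Mki67, Ncapg, Prc1, Smc4 and Ttk. The other filters, the other prior and the slide blocks left the changes of the 49 genes as they were, so no sign could turn there. The authors' table held only 23 of the genes.

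Where a gene had several usable probes, they pointed the same way. This could be checked for 15 of the genes, and in all 15 every kept probe had a change of the same sign. Of the 19 additional probes, 14 had a more negative change than the brightest probe of their gene, and for 8 the null pools all lay below the wild-type pools. Mad2l1, a checkpoint protein, had changes of -0.43, -0.8 and -1 on its 3 probes, and its null pools lay below wild type only on the second and the third. Birc5 (survivin) had changes of -0.33, -0.59 and -0.69. Nuf2 went the other way, with -0.82 on its brighter probe and -0.19 on its dimmer one, where the pools overlapped. Its call therefore rests on 1 probe.

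Promoters of mitosis genes share a known arrangement, in which CCAAT boxes, bound by NF-Y, lie upstream of a cell cycle homology region, the element bound by MuvB complexes. The 300 bases from 250 before to 50 after the transcription start were read from RefSeq (build GRCm38.p6), where 41 of the 50 genes had an entry, with 44 promoters. CCAAT was searched on both strands. As the core of the homology region, TTTGAA was searched on both strands too, and so was the self-complementary TTCGAA as its variant form. The CCAAT motif was present in 35 of the 44 promoters (79.5%), against 37.4% of all 32851 promoters, and the core in 34 (77.3%), against 19.2%. Both were present in 31 (70.5%), against 7.52%. Of the CCAAT matches, 63% began in the 100 bases before the start, against 43.6% over all promoters. Of the core matches, 67.4% began within 50 bases of the start on either side, against 25.2%. The median GC content was 58.8% in the mitosis promoters and 52.7% in all. These are descriptions of letters, not of bound sites.

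The shares were also taken by how the pools of a gene lay. Among the 15 promoters of genes whose null pools all lay below wild type, 80% held CCAAT and 66.7% the core, and among the 29 promoters of measured genes whose pools overlapped, 79.3% and 82.8% did. Of the genes with an entry, 6 had neither motif in this window, namely Nuf2, Mybl2, Plk4, Mad2l1, Pttg1 and Birc5. The 4 promoters printed here are those of the gene with the largest fall, of both genes with the most CCAAT matches (6 each), and of the gene with the most positive change. They are shown 5′ to 3′ on the gene's strand, with every match to any of these 3 motifs on either strand in capitals. Nuf2 lies at chr1:169531415-169531714 on the minus strand, Ube2c at chr2:164769679-164769978 on the plus strand, Top2a at chr11:99024140-99024439 on the minus strand and Cdc25b at chr2:131186698-131186997 on the plus strand.
Nuf2: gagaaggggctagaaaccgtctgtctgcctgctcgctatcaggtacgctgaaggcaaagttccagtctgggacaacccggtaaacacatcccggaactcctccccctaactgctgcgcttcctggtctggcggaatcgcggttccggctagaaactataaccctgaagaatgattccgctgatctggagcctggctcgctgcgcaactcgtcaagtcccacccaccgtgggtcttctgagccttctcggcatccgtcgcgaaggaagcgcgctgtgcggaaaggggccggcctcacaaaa
Ube2c: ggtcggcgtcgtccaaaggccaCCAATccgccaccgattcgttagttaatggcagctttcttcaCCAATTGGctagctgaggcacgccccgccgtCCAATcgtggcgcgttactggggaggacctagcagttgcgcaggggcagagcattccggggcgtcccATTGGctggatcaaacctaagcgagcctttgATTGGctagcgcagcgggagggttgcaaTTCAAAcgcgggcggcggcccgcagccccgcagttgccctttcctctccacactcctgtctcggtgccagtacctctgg
Top2a: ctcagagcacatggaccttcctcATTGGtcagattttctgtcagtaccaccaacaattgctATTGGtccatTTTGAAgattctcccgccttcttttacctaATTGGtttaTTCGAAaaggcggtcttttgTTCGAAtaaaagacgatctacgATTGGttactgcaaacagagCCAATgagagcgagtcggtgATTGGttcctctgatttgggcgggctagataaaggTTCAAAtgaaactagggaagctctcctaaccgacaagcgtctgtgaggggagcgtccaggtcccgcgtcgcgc
Cdc25b: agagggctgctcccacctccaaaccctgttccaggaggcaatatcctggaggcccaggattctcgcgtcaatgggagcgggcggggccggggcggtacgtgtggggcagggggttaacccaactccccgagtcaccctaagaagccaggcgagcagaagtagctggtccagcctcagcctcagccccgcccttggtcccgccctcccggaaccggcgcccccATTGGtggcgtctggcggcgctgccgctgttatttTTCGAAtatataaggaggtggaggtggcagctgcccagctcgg
The Nuf2 window, of the only gene called lower, holds no capitals. In Ube2c, 2 of the 6 CCAAT matches share bases as a palindrome, and the single core match begins 29 bases before the start. Top2a has 6 CCAAT matches and 4 core matches, the last beginning 23 bases before the start. Cdc25b has 1 of each, the CCAAT match beginning 28 bases before the start and the core match at base 8 after it.

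Among the genes of entry into mitosis, 5 of 6 had a negative change and 0 passed the test (median -0.26). Cdc25c, a phosphatase that activates Cdk1, stood at -1.46, -0.95 and -0.53 in the wild-type pools and at -1.52, -1.51 and -1.64 in the null pools, a change of -0.58 (SE 0.24, limma adjusted p = 0.18). The null pools were grouped just below wild-type pool 1, and most of the spread was among the wild-type pools. Its relative Cdc25b, another such phosphatase, had the most positive change of all 49 genes, at 0.16, 0.53 and 0.84 in wild type and 1.07, 0.9 and 0.64 in the null pools (0.36, SE 0.22, limma adjusted p = 0.349). Here the groups overlapped, since null pool 3 lay below wild-type pool 3. Cdk1, the mitotic kinase itself, stood at 1.04, 0.91 and 0.63 against -0.13, 0.76 and 0.52, and its change of -0.48 was carried largely by null pool 1. The cyclins Ccna2, Ccnb1 and Ccnb2, which bind Cdk1, had changes of -0.26, -0.26 and -0.17 and did not pass the test, and only for Ccna2 did the pools not overlap.

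Of the role groups, the 4 genes listed as mitotic kinases were the most uniform. The kinases Bub1 (-0.01) and Ttk (0.1), whose pools overlapped, were listed with the spindle checkpoint, and Aurkb was not measured. In all 4 listed kinases the null pools lay wholly below the wild-type pools (100%, beside 15% of all genes), with changes between -0.46 and -0.38. An unadjusted limma p under 0.05 was found for 3 (beside 11.9% of all genes), and 0 passed after adjustment. Nek2, a kinase of centrosome separation, stood at -0.79, -0.51 and -0.43 in wild type and at -1.08, -1.03 and -1.01 in the null pools (-0.46, SE 0.16, limma adjusted p = 0.116). Plk1, which acts from centrosome maturation to cytokinesis, stood at 4.37, 4.78 and 4.77 against 4.26, 4.24 and 4.28 (-0.38, SE 0.17, limma adjusted p = 0.2). In both genes the null pools were close together and wild-type pool 1 was the nearest wild-type pool. Plk4, which starts centriole duplication, and Aurka, which works at spindle poles, had changes of -0.44 (limma adjusted p = 0.114) and -0.39 (limma adjusted p = 0.15). Within slides the median of the 4 kinases was -0.29, -0.47 and -0.54.

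The chromosomal passenger complex places the Aurkb kinase at centromeres and later at the midzone, and its 3 measured subunits had changes of -0.36, -0.33 and -0.21, with 0 called. Cdca8 (borealin) stood at 4.43, 4.59 and 4.37 in wild type and at 3.78, 4.25 and 4.29 in the null pools (SE 0.19, limma adjusted p = 0.277). The null pools were all lower, with pool 1 well below the other two. Incenp, the scaffold of the complex, stood at 4.38, 4.56 and 4.15 against 3.96, 4.16 and 4.36, and the groups overlapped. Within slides the median of the 3 was -0.64, -0.4 and 0.08, so it was not negative on slide 3.

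In the spindle checkpoint 4 of 5 genes had a negative change (median -0.41), and 0 were called. Bub3, which docks checkpoint proteins on kinetochores, stood at 3.57, 3.49 and 3.77 in wild type and at 3.14, 3.25 and 3.14 in the null pools (-0.43, SE 0.15, limma adjusted p = 0.123). Every null pool was below every wild-type pool. Bub1b (BubR1), an inhibitor of the anaphase-promoting complex, had a change of -0.41 with no overlap, and Mad2l1, which forms the same inhibitory complex, had -0.43 with overlap. Bub1, the kinase that recruits these proteins, had a change of -0.01. Ttk (Mps1), the kinase at the head of the checkpoint, stood at -3.28, -2.82 and -2.64 against -2.26, -3.04 and -3.14, with null pool 1 the highest of all 6, a change of 0.1 (SE 0.28, limma adjusted p = 0.858). Its sign turned in 6 of the 17 alternative settings, and that of Bub1 in 4.

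The 4 genes of the anaphase machinery all had a negative change, between -0.45 and -0.23, with 0 called. Ube2c, the ubiquitin-conjugating enzyme that works with the anaphase-promoting complex, stood at 3.96, 3.97 and 4.18 in wild type and at 3.64, 3.65 and 3.47 in the null pools (-0.45, SE 0.15, limma adjusted p = 0.114). The groups were clearly apart, and its additional probe gave -0.54. Cdc20, the activator of that complex, stood at 4.38, 4.5 and 4.58 against 4.42, 4.1 and 4.24 (-0.23, SE 0.16, limma adjusted p = 0.393), with null pool 1 inside the wild-type range. Pttg1 (securin), which restrains separase, had a change of -0.29 without overlap. Espl1, separase itself, was the most variable gene of the 49, at 0.34, 1.25 and 1.71 in wild type and 1.3, 0.52 and 0.23 in the null pools, so that its change of -0.42 had an SE of 0.4.

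The centromere and kinetochore group held the only called gene. Nuf2, a subunit of the Ndc80 complex that grips microtubules, stood at -0.19, -0.1 and 0.19 in the wild-type pools (mean -0.03 ± 0.2, SD, n = 3) and at -0.98, -0.64 and -0.92 in the null pools (mean -0.85 ± 0.18, SD, n = 3). All null pools lay below all wild-type pools. The level fell by 0.82 on the log2 scale (SE 0.18, 1.76-fold, limma adjusted p = 0.0311), with a 95% interval from -1.24 to -0.40. The call was lost on leaving out any 1 of the 6 pools, with limma adjusted p = 0.0511, 0.0922 and 0.0849 without wild-type pool 1, 2 and 3 and 0.0723, 0.0648 and 0.101 without null pool 1, 2 and 3. It was also lost when slides were fitted as blocks (0.14), when dim probes were kept (0.0851) and when both its probes were averaged (0.0596).

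The other 3 subunits of the Ndc80 complex did not pass the test. Spc24 stood at 1.46, 1.14 and 1.54 against 0.82, 0.98 and 0.88 (-0.49, SE 0.17, limma adjusted p = 0.113), with no overlap. Ndc80 and Spc25 had changes of -0.24 and -0.16, with overlap. Whether Nuf2 differs from its partners in the same complex was not tested. Cenpa, the histone variant that marks centromeres, stood at 2.07, 2.27 and 2.67 against 2.01, 1.87 and 1.66 (-0.49, SE 0.2, limma adjusted p = 0.176), with null pool 1 just below wild-type pool 1. Cenph, of the inner kinetochore, had a change of -0.25 without overlap, and Cenpf, of the outer kinetochore, -0.09 with overlap. At the other end, Cenpe, a kinetochore motor, stood at 3.49, 3.59 and 3.12 in wild type and 3.26, 3.49 and 3.8 in the null pools, and its groups overlapped (0.12, SE 0.21).

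Among 8 kinesins and spindle assembly genes, 6 had a negative change (median -0.34) and 0 were called. Kif23, the motor of the centralspindlin complex at the midzone, stood at 0.38, 0.65 and 0.94 in wild type and at 0.22, 0.11 and -0.33 in the null pools (-0.66, SE 0.22, limma adjusted p = 0.104), which was the second most negative change of the 49. Its pools did not overlap, but null pool 1 and wild-type pool 1 were 0.17 apart on slide 1 and pools 3 were 1.27 apart on slide 3. Kif11 (Eg5), which pushes spindle poles apart, stood at 0.25, 0.22 and 0.57 against 0.87, 0.41 and 0.18, with null pool 1 the highest and null pool 3 the lowest (0.14, SE 0.22). Kif20a, a midzone kinesin, had its lowest level, 2.51, in null pool 1 and stood at 3.22 in null pool 3, above wild-type pool 3 at 3.13, for a change of -0.53 (SE 0.23). Kif2c, which depolymerises microtubules, and the chromosome-bound motor Kif4 had changes of -0.51 and -0.37 with overlap. Tpx2, an activator of Aurka, and Kif22, which pushes chromosome arms, had changes of -0.32 and -0.21 without overlap. Prc1, the bundler of midzone microtubules, had a change of 0.13.

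The genes of cytokinesis and of chromosome structure showed no separation of the groups in any of their 9 measured members. Racgap1, the partner of Kif23 in centralspindlin, stood at 2.29, 2.2 and 2.01 against 1.66, 2.09 and 2.01 (-0.25, SE 0.18), and its pools 3 were level. Anln (anillin), a scaffold of the contractile ring, stood at 1.9, 2.16 and 1.8 against 1.89, 1.92 and 1.89 (-0.05, SE 0.16). Ect2, which switches on RhoA at the midzone, had a change of -0.08. The 3 cytokinesis genes had a within-slide median of -0.61, -0.23 and 0.09.

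Chromosome structure genes had a median change of -0.02, with 3 negative and 3 positive. Top2a, the topoisomerase that untangles sister chromatids, stood at 1.63, 2.13 and 2.43 in wild type and at 2.05, 1.88 and 1.46 in the null pools (-0.27, SE 0.25, limma adjusted p = 0.549), and the groups overlapped because wild-type pool 1 lay below null pools 1 and 2. Mki67 (Ki-67), the standard marker of cycling cells, stood at 4.15, 4.09 and 4.25 against 3.73, 4.26 and 4.24 (-0.08, SE 0.19, limma adjusted p = 0.825), and its second probe gave -0.03. The wild-type pools were close together, and only null pool 1 lay apart from the rest. Ncapd2, a condensin I subunit, stood at 3.83, 4.06 and 3.97 against 4.04, 4.25 and 4.36 (0.26, SE 0.16, limma adjusted p = 0.346), with null pool 1 just under wild-type pool 2. Its partner Ncapg had a change of 0.14, and the shared condensin cores Smc2 and Smc4 of -0.2 and 0.05. Whether this group differs from the kinases or the kinetochore was not tested.

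The transcription factors that drive these genes were not called different. Foxm1, the forkhead activator, stood at 0.63, 0.96 and 1.07 in wild type and at 0.66, 0.58 and 0.53 in the null pools (-0.3, SE 0.17, limma adjusted p = 0.315). Null pool 1 lay above wild-type pool 1, so the groups overlapped by that pair alone. Mybl2 (B-Myb) stood at 3.58, 3.82 and 3.93 against 3.77, 3.68 and 3.6 (-0.1, SE 0.16, limma adjusted p = 0.754).

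**Figure D2:**
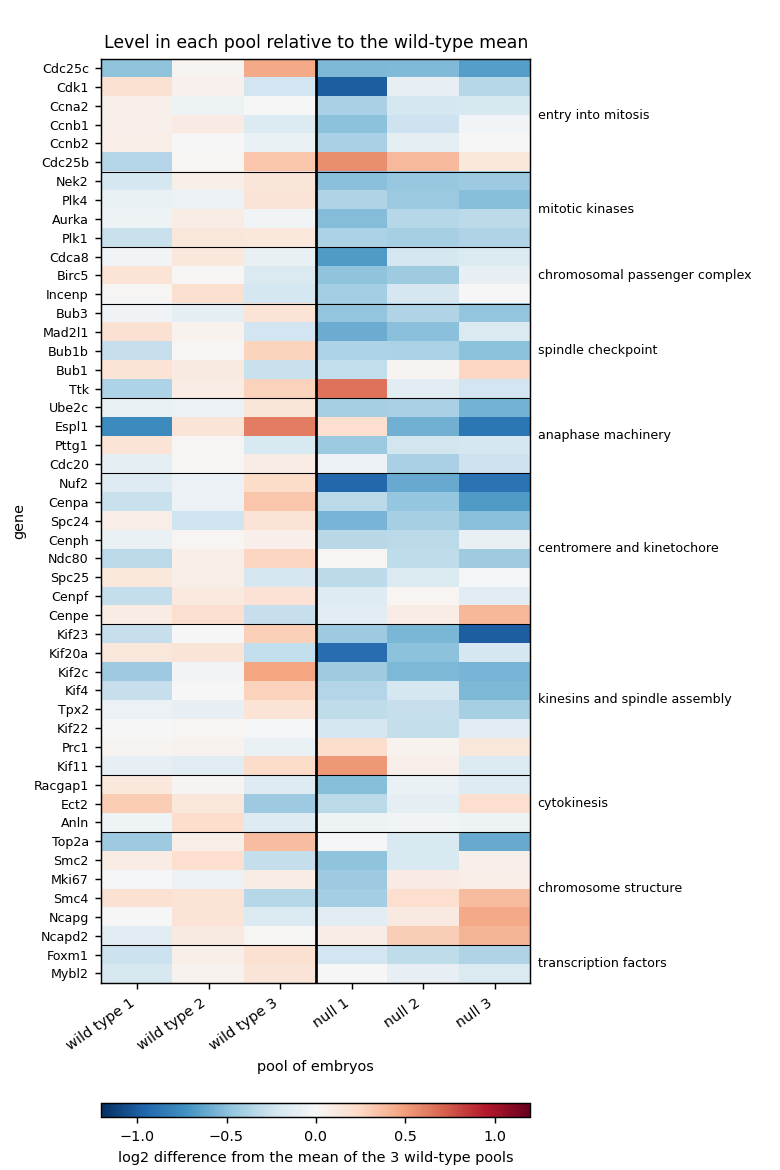
Level of each of the 49 mitosis genes in each pool, as the log2 difference from the mean of the 3 wild-type pools, with genes grouped by role and blue for lower. The null columns are mainly blue for the kinases and most of the kinetochore genes and mixed for chromosome structure, and null pool 1 holds the lowest level of all 6 pools for 22 genes.

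The pools of 1 genotype also differed from each other. Null pool 1 held the lowest of the 6 levels for 22 of the 49 genes (44.9%, beside 22.5% of all genes), and null pool 3 for 14 (28.6%, beside 14.5%). Wild-type pool 3 held the highest level for 21 (42.9%, beside 16.3%), and wild-type pool 2 the lowest for 0 (beside 17.9%). These ranks over 6 pools mix the shift between genotypes with differences inside a genotype. Among the null pools alone, pools 1, 2 and 3 were the lowest for 27, 4 and 18 genes. Among the wild-type pools alone, they were the highest for 11, 13 and 25. The matching shares over all genes were not taken for these counts inside a genotype. Espl1, Ttk, Kif11 and Top2a were higher in wild-type pool 3 than in wild-type pool 1, by 1.37, 0.64, 0.32 and 0.8, and also higher in null pool 1 than in null pool 3, by 1.07, 0.88, 0.69 and 0.58. Ect2, Smc4, Kif20a and Cdk1 ran the other way in both genotypes, by -0.74, -0.51, -0.43 and -0.41 in wild type and by -0.51, -0.79, -0.71 and -0.64 in the null pools.

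Over the 49 genes, the difference of wild-type pool 3 minus pool 1 and the difference of null pool 1 minus pool 3 had the same sign in 37 genes (75.5%), against 74.3% of all genes tested, so the share of signs is that of the background. Pearson's r across the genes was 0.85 for the mitosis genes and 0.47 for all genes. These are correlations across genes of 4 arrays, not across samples, and the pairs were chosen after their values were seen. The arrays concerned differ in brightness, and on both sides the array with the higher 75th percentile is taken first (10.16 and 9.5 in wild type, 9.47 and 9.02 in the null pools). The part of array brightness in this pattern was not tested. Under the alternative settings that could change it, r was between 0.74 and 0.86, the lowest being in the authors' table with 23 genes. Median scaling shifts all genes of an array alike, so r could not move there.

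**Figure D3:**
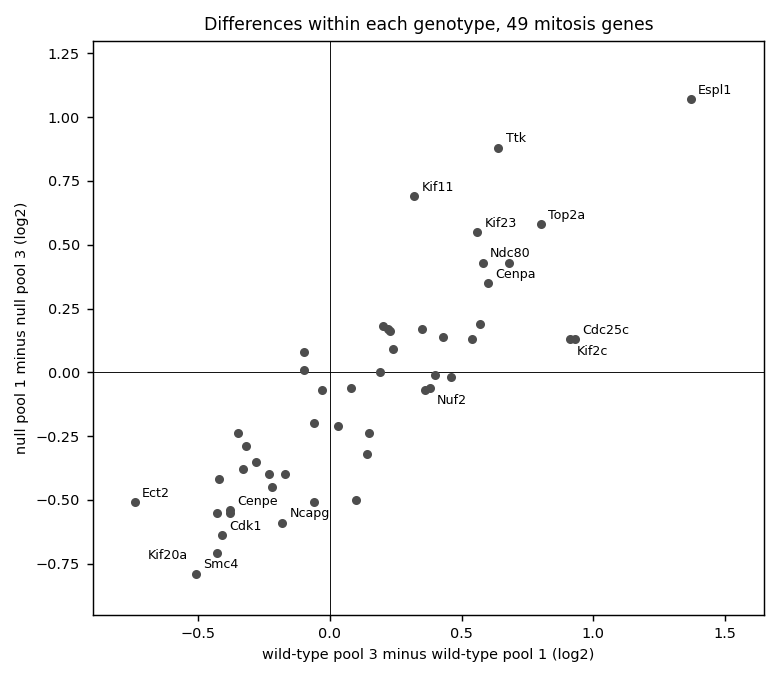
Differences between pools of 1 genotype for the 49 mitosis genes, with wild-type pool 3 minus pool 1 on the horizontal axis and null pool 1 minus pool 3 on the vertical axis, in log2 units. Each point is a gene. Points lie along a rising diagonal from Smc4 and Kif20a to Espl1 (1.37 and 1.07), with r = 0.85 across genes.

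Genes of the same machinery outside the 50 were examined in 7 other lists. Among 31 other kinetochore and centromere subunits, 3 fell (9.68%, beside 3.83% of all genes) and 0 rose, and the median change was -0.22. Cenpm, an inner kinetochore subunit, stood at -1.52, -1.41 and -1.07 in wild type and -2.39, -2.29 and -2.4 in the null pools, and it fell by 1.03 (SE 0.17, limma adjusted p = 0.0129). Cenpu, another inner kinetochore subunit, fell by 0.79 (SE 0.15, limma adjusted p = 0.0213), and Zw10, which recruits dynein to kinetochores, by 0.72 (SE 0.18, limma adjusted p = 0.0425). The Cenpm call held without any 1 pool. That of Cenpu was lost on leaving out wild-type pool 1 or 2 or any null pool, and that of Zw10 without any pool but null pool 1. Among 25 other spindle and cytokinesis genes, 2 fell (8%) and 0 rose, with a median of -0.21. Haus7, of the augmin complex that branches microtubules, fell by 1.19 (SE 0.23, limma adjusted p = 0.0214), and Ckap2, a spindle-associated protein, by 0.67 (SE 0.15, limma adjusted p = 0.0328). The Haus7 call was lost on leaving out pool 2 or pool 3 of either genotype, and the Ckap2 call without any 1 of the 6.

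The anaphase-promoting complex and the cohesins showed little. Of 17 subunits and cofactors of the complex, 0 were called by limma, with a median change of -0.04. An unadjusted limma p under 0.05 was found for 1, which was lower (beside 11.9% of all genes). The smallest p values there were those of Anapc10, a core subunit (-0.56, adjusted p = 0.177), and Fbxo5, an inhibitor of the complex (-0.29, adjusted p = 0.257). Anapc10 was very dim, with means of -5.84 in wild type and -6.4 in the null pools. Its probe was well above background on 3 wild-type arrays and 1 null array. It thus passed the filter through the wild-type pools, and its change is not read as a result. Of 17 cohesin and other condensin genes, with a median of -0.07, 0 were called. An unadjusted limma p under 0.05 was found for 2, each lower (beside 11.9% of all genes). These were Ncaph2, of condensin II (-0.42, adjusted p = 0.131), and Cdca5 (sororin), which holds cohesin on chromatin (-0.45, adjusted p = 0.138).

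Upstream of mitosis, 21 E2F, pocket protein and MuvB genes had a median of -0.29. None was called lower by limma and 1 was called higher (4.76%, beside 6.6% of all genes), so neither share was above the background. At an unadjusted limma p under 0.05, 3 were lower (beside 11.9% of all genes) and 2 higher (beside 15.1%). The gene called higher was Rb1, the retinoblastoma protein that restrains E2F. It stood at -0.89, -0.97 and -1.24 in wild type and -0.28, 0.07 and -0.05 in the null pools (rose by 0.95, SE 0.18, limma adjusted p = 0.0188). Its call was lost on leaving out pool 2 or pool 3 of either genotype. Of 24 measured G1 and S phase genes, 9 fell (37.5%, beside 3.83% of all genes) and 0 rose, with a median of -0.55, more negative than that of the mitosis genes, though the difference between the lists was not tested. Ccne1 (cyclin E1) fell by 1.17 (SE 0.20, limma adjusted p = 0.0131), Ccnd1 (cyclin D1) by 0.91 (SE 0.15, limma adjusted p = 0.0114), Tyms (thymidylate synthase) by 0.89 (SE 0.16, limma adjusted p = 0.0154) and Tk1 (thymidine kinase) by 0.77 (SE 0.15, limma adjusted p = 0.0219). Promoters were at hand for 19 of the G1 and S phase genes, 21 in all. The homology region core was in 9.52% of these, against 77.3% in the mitosis genes and 19.2% of all promoters. CCAAT was in 61.9%, against 79.5% and 37.4%. Without wild-type pool 1, 2 or 3 the count of 9 went to 3, 1 and 3, and without null pool 1, 2 or 3 to 4, 1 and 4.

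Of 14 CDK inhibitors and related brakes on division, 3 rose (21.4%, beside 6.6% of all genes) and 0 fell, with a median change of 0.64. Cdkn1a (p21) stood at -1.21, -0.94 and -0.28 in wild type and 0.79, 0.61 and -0.09 in the null pools and rose by 1.25 (SE 0.31, limma adjusted p = 0.0481). Cdkn1b (p27) stood at 1.69, 1.36 and 1.24 against 2.06, 2.51 and 2.48 and rose by 0.92 (SE 0.2, limma adjusted p = 0.0309). Btg2, an antiproliferative protein, rose by 0.88 (SE 0.22, limma adjusted p = 0.046). In all 3 genes the null pools lay above the wild-type pools. Cdkn1c (p57), named after its values were seen, lay the other way, at 6.53, 6.68 and 6.56 in wild type and 6.19, 5.8 and 5.89 in the null pools (-0.63, SE 0.17, limma adjusted p = 0.0548), and it was called lower in 6 of the 17 alternative settings, median scaling among them. Without wild-type pool 1, 2 or 3 the count of 3 went to 1, 0 and 1, and without null pool 1, 2 or 3 to 4, 0 and 1. With median scaling 1 of the 14 rose and 1 fell, and with normexp background correction 5 rose and 1 fell. The Cdkn1a call was also lost with the mean of the kept probes. That of Btg2 was also lost with quantile normalization and the authors' table. When slides were fitted as blocks, 0 genes of any of these 7 lists passed the limma test.

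In each pool, the median deviation of the mitosis genes from their own means over the 6 arrays was 0.05, 0.16 and 0.15 in wild type and -0.2, -0.11 and -0.09 in the null pools. For the G1 and S phase genes it was 0.2, 0.29 and 0.19 against -0.28, -0.27 and -0.24. For the CDK inhibitors and brakes it was -0.2, -0.26 and -0.26 against 0.1, 0.38 and 0.23. These 3 lists kept the genotypes apart in every pool. Of the 3, the mitosis genes did so by the smallest margin, 0.05 in wild-type pool 1 against -0.09 in null pool 3. Most of the other lists did not. Wild-type pool 3 and null pool 3 stood at 0.02 and 0.02 for the other kinetochore genes and at 0.01 and 0.02 for the other spindle genes. They stood at 0.05 and 0.06 for the anaphase-promoting complex and at -0.08 and 0 for the cohesins. The E2F list stayed apart, at 0.01 and -0.02 in these pools.

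**Figure D4:**
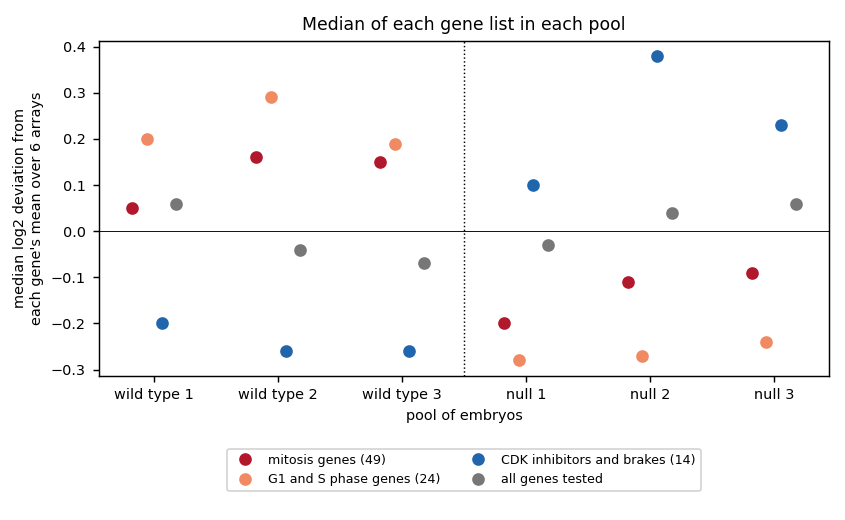
Median log2 deviation of the genes of a list from each gene's mean over the 6 arrays, in each pool, for 49 mitosis genes, 24 G1 and S phase genes, 14 CDK inhibitors and brakes, and all genes tested. Mitosis genes are above 0 in the wild-type pools and between -0.2 and -0.09 in the null pools, while all genes stay between -0.07 and 0.06.

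Some markers of other cells differed by genotype beside the mitosis genes. All 9 megakaryocyte and platelet markers rose (100%, beside 6.6% of all genes), and 7 to 9 of them did with any 1 pool left out. Their summed log2 level was 1.49 to 2.43 in wild type and 5.23 to 5.93 in the null pools. Of 8 primitive red cell markers 0 were called, and 6 had an unadjusted limma p under 0.05, all higher (beside 15.1% of all genes). Their sum was 8.12 to 9.19 against 9.56 to 10.21. Within slides their median difference was 0.28, 2.33 and 0.09, so the rise was largest on slide 2. Of 7 epithelial and pharyngeal endoderm markers 1 rose (14.3%, beside 6.6% of all genes), the keratin Krt18, and the sum was 5.33 to 5.45 against 6.28 to 6.51. The members did not go 1 way: the null pools lay wholly above for Krt18 (1.09) and Krt8 (0.89, adjusted p = 0.0756) and wholly below for the endoderm genes Shh (-1.58, adjusted p = 0.0543) and Foxa2 (-0.54, adjusted p = 0.158). Of 6 measured neural markers 2 fell (33.3%, beside 3.83% of all genes), Tubb3 and Dcx, with a sum of -0.27 to 0.12 against -0.99 to -0.6. The calls of both were lost on leaving out pool 2 or pool 3 of either genotype (adjusted p 0.0737 to 0.0974). The change of Dcx also depended on the processing. It was -1.31, but -0.24 with normexp background correction (limma adjusted p = 0.286) and -0.64 with the kept probes averaged. When slides were fitted as blocks the limma adjusted p was 0.0649 for Krt18, 0.0965 for Tubb3 and 0.0667 for Dcx, while all 9 megakaryocyte markers and Nppa passed. The cardiomyocyte sum was 10.53 to 10.79 against 10.64 to 10.97, and the endothelial sum, with 0 of 7 called (0 with an unadjusted limma p under 0.05), was 3.37 to 3.43 against 3.59 to 3.95.

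Trophoblast and macrophage markers did not follow genotype. Of 10 trophoblast markers 5 were measured and 0 called, with a sum of 1.14 to 2.13 in wild type and 1.02, 1.41 and 4.91 in null pools 1, 2 and 3. The high value came from Prl3d1, a placental hormone gene, at 4.78 in null pool 3 and under -0.9 in the other 5 pools. Of 6 macrophage markers 3 were measured and 0 called, with a sum of -0.5 to 1.51 against -0.67 to 1.97. The part of these cell types in the shift of the mitosis genes was not tested. Without null pool 3 the median change of the 49 genes was -0.29, and without null pool 1 it was -0.22.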

How the data were processed

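Single-colour Agilent arrays were read, 3 of wild-type and 3 of Arid3b-null E9.5 heart pools. The deposited intensity values were made, per the file headers, with Feature Extraction 10.7.3.1 on array design 026655, which had already subtracted background and marked spots as saturated, outlying or well above background. The authors' deposited log2 table held 24158 probes, 23 of the genes studied among them. The scaling behind it is not stated in the labels. It correlated with the scanner signal at 0.9994 or above on each array, had medians of 6.76 to 6.77, and served as an alternative.

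The log2 of the processed intensity minus its 75th percentile over an array's non-control spots, outlier spots left out, was averaged over the spots of a probe. Probes well above background on at least 3 arrays were kept (26848 of 39429), and the brightest stood for its gene. Symbols came from the deposited RefSeq accessions through a table of assembly GRCm38.p6, and 6567 of the 21800 genes tested had none. The file headers name mm9, so positions printed are those of the promoter table alone. Null and wild-type pools were tested in R 4.3.3 using lmFit and eBayes of limma 3.58.1 (two-sided, Benjamini-Hochberg adjusted over all genes tested, threshold 0.05), with data held in data.table (version 1.17.8). The test was tried on simulated data. Lists were described by counts and medians, with no test.

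The genes studied, the lists and the tests were chosen with earlier results of these data known. Pool values are given for called genes and for the most negative and the most positive change of each role. Cdk1, Kif20a, Mad2l1, Mki67, Espl1, Spc24 and Cenpa were added after their values were seen. Of each other list, up to 4 called genes with the smallest p are named, or the 2 genes with the smallest p where none was called. Alternatives were other scalings, background corrections, filters, probe summaries, priors, slides fitted as blocks, weights for arrays, the deposited log2 values and leaving out each pool.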

Additional observations from a re-analysis of the deposited data

How the results depend on the processing

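The count of mitosis genes called lower was 1. It was 2 with median scaling (Nuf2 and Spc24), 4 with array weights (Kif23, Nek2, Nuf2 and Plk4), 2 with the authors' table (Mad2l1 and Nuf2, of 23 genes held), 0 without the filter on dim probes and 0 with the replicate block. It ranged from 0 to 0 when 1 pool was left out. With the mean of the kept probes 1 gene was called, Mad2l1 (-0.74, limma adjusted p = 0.0264) in place of Nuf2. The count called higher was 0 in all 17 alternatives. The median change over these genes, -0.26, became -0.40 with median scaling and -0.48 with the authors' table, and it was -0.22 to -0.31 in the others. Nuf2 stayed negative in all 17 (-0.96 to -0.51, limma adjusted p 0.0187 to 0.14) and passed in 8. The other filters, the other prior and the replicate block left its change at -0.82, so its sign could not turn there.

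Over all genes tested, 834 lower and 1439 higher became 1435 lower and 1093 higher with median scaling, 283 and 754 without the filter, 2074 and 2796 with array weights, and 199 and 532 with the replicate block. Leaving out 1 pool gave 245 to 581 lower and 590 to 1177 higher. Deviations of same-numbered pools correlated at -0.41, -0.09 and -0.41 across genes, so pools of the same number, which shared a slide, did not deviate alike. Without the filter 2 G1 and S phase genes, 1 kinetochore gene and 0 spindle genes, CDK inhibitors or E2F genes passed. With 3 pools per group and a median SE of 0.18, the cause of each lost call was not tested.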
